A study of Camellia sinensis with 9 samples.

Results

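In the leaves of ‘Anji Baicha’, 39 of 179951 unigenes were both highly expressed and nearly level through the color change. A unigene was counted here when its expression level was at least 50 FPKM (fragments scaled to the length of the unigene and to the mapped fragments of the sample) at each of 3 stages, and when each of the 3 pairwise differences of log2(FPKM + 1) between stages was below 0.3 in size, a difference of 1.23-fold. Unigenes that the study tabulated as differentially expressed in the carotenoid, chlorophyll and theanine pathways were left out by the same rule, which removed none, because neither of the 2 such unigenes above 50 FPKM at every stage was level. The 39 unigenes were thus chosen by their own FPKM values at the 3 stages, so these values are given as a description and no test was made on them. They were 14.3% of the 272 unigenes with at least 50 FPKM at each stage, and the same limit on the differences was met by 27.3% of the 29995 unigenes with at least 1 FPKM at each stage and by 13.7% of the 78868 with at least 1 FPKM in at least 1 stage. The 1 added before the log narrows differences at low FPKM, so the last 2 shares are not fully comparable with the 14.3%.

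The RNA-seq libraries came from leaves of 4-year-old plants of the tea cultivar ‘Anji Baicha’ (Camellia sinensis), whose young shoots lack chlorophyll in cool spring weather and regreen later. They covered the yellow-green (YG), white (W) and green (G) leaf stages, with 3 libraries per stage and 9 in all. No treatment was applied, and leaf position on the shoot, collection date and temperature changed together with the stage, so they cannot be told apart from it. The deposited values hold 1 FPKM value per unigene and stage, the 3 libraries having been combined. The spread between libraries and the number of fragments behind a value are thus unknown, and no difference below could be checked on replicates here. The study itself compared stages by Student's t-test on 3 libraries per stage and measured selected genes by quantitative PCR. Some unigenes named below are among those it tabulated as differentially expressed.

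An FPKM value is a share of the mapped fragments, corrected for length. The FPKM values of a stage do not add up to the same total at every stage, so an equal FPKM is not an equal share of all transcripts, and in whole leaves a change in the number of cells of a type and a change in RNA per cell cannot be told apart. Genes whose transcripts hold a steady share are commonly used as references in quantitative PCR, and many encode parts of general cell upkeep such as protein synthesis, turnover and energy supply. Of the 39 unigenes, 38 carry no gene name in the lists used here, and none matched the reference gene table by identifier, so they are described by identifier and no role is given to them.

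The single unigene with a gene name was unigene90011, listed as glutamate-1-semialdehyde aminotransferase (GSA). GSA makes 5-aminolevulinate, the precursor from which chlorophyll and heme are built in plastids. The expression level of unigene90011 was 86.6 FPKM at YG, 95.7 at W and 79.9 at G. Its highest value was thus in the white leaves, 0.14 above YG on the log2(FPKM + 1) scale, and its lowest in the green leaves, 0.26 below W. By mean FPKM it ranked 8 of 39, while its largest difference was among the widest of the level unigenes, at rank 35 of 39 from the smallest. Its place depended on the scaling of the stages. With upper-quartile scaling the largest difference became 0.33 and with quantile normalization 0.39, both past the limit, while median-of-ratios scaling gave 0.2996. When the stages were scaled to equal FPKM sums, an alternative added after the values were seen, it was 0.34.

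The study described the genes it selected for qRT-PCR as differentially expressed, but did not tabulate unigene90011 among those of the chlorophyll pathway. It designed qRT-PCR primers for this unigene, which are shown because they are the only sequence that identifies a level unigene here. The pair for CHLP unigene26550 is shown beside them, since this unigene was just outside the limit. CHLP is known as geranylgeranyl reductase, which supplies the phytol tail of chlorophyll, although the pathway list of the study calls it chlorophyll synthase. The pair for GAPDH, a glycolytic enzyme, belongs to the reference gene against which the qRT-PCR values of the study were scaled. The primer list pairs GAPDH with no unigene, so its expression level is not given. All are written 5′ to 3′, with no part marked by capitals.
GSA sense: acttgctgccattgcttctctctc
GSA antisense: ggtccatgctcacccctatcttat
CHLP sense: tgaggagagagatggagaagatga
CHLP antisense: aacccaaaaaccaaaaaaaacaaa
GAPDH sense: cagcattggaaaaggaagtaaaacc
GAPDH antisense: tgacatacagcacgatacaggagc
Both GSA primers are 24 bases long and hold 50% G and C. The CHLP primers have the same length, with 45.8% in the sense and 25% in the antisense primer.

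The 39 unigenes lay in a narrow band of expression. Their mean over the stages ran between 52.6 and 224 FPKM with a median of 76.5, and 34 of them were below 100 FPKM. The median expression level was 75.7 FPKM at YG, 75.3 at W and 80.7 at G. At single stages, 5 of the 39 reached 100 FPKM at YG, 6 at W and 5 at G. The standard deviation of the mean log2(FPKM + 1) between the 39 unigenes was 0.46, while the median standard deviation over the stages within a unigene was 0.11.

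The highest expression level belonged to unigene10754, with 238 FPKM at YG, 234 at W and 200.02 at G. YG and W were nearly equal in this unigene and G was lower, by 0.25 from YG on the log2 scale. The next was unigene132647, with 186.7 at YG, 186.6 at W and 193.7 at G, where the stages differed by at most 0.05. In unigene9165 the values were 168.7 at YG, 168.1 at W and 137.0 at G. This was the widest of all level unigenes, with G 0.298 below YG.

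Among the other unigenes above a mean of 100 FPKM, unigene87448 had 146.5 FPKM at YG, 131.0 at W and 129.4 at G, so that the difference lay before the W stage. The values of unigene27276 were 125.0 at YG, 108.7 at W and 125.7 at G, with W low and the outer stages alike. Of the 5 unigenes with a mean over 100 FPKM, 3 had their lowest value at G and 2 at W. Below these came unigene63697, with 87.5, 100.8 and 88.1 FPKM at successive stages, where W was high.

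**Figure D1:**
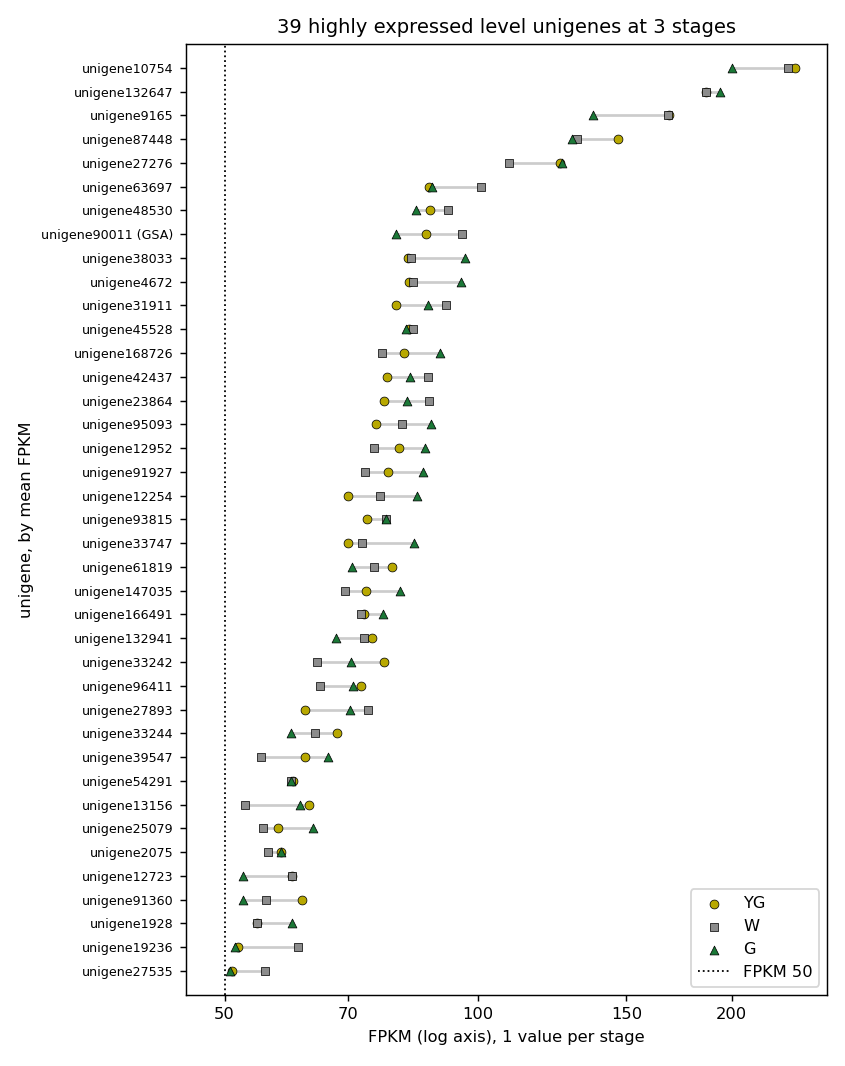
Expression levels of the 39 highly expressed level unigenes, by mean FPKM, with the FPKM at the YG, W and G stages on a log axis as 3 points a unigene joined by a grey line. The dotted line is the minimum of 50 FPKM, and unigene10754 stands highest, between 200.02 and 238 FPKM.

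The next in order were unigene48530, with 87.8 FPKM at YG, 92.1 at W and 84.4 at G, and then unigene90011. They were followed by unigene38033, with 82.5, 83.2 and 96.4, and unigene4672, with 82.8, 83.8 and 95.4 FPKM at successive stages. The last pair had nearly the same values at every stage, with YG and W alike and G higher by 0.22 and 0.20 than YG on the log2 scale. Another 13 unigenes had a mean below 70 FPKM.

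The most even profile was that of unigene54291, with 60.4 FPKM at YG, 59.9 at W and 59.9 at G, a largest difference of 0.01 on the log2 scale. It was followed by unigene45528, with 82.8, 83.8 and 82.1, a largest difference of 0.03. Unigene2075 had 58.4 FPKM at YG, 56.3 at W and 58.3 at G, with W low by 0.05. In unigene93815 the values were 73.8 at YG, 77.75 at W and 77.78 at G, so that the W and G stages were nearly equal and YG was lower by 0.07. Together with unigene132647, these were the 5 smallest differences. Over the 39 unigenes the median largest difference was 0.20, and 7 had a highest value less than 1.1 times their lowest.

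The limits did not mark a gap in the data. Of the 272 unigenes with at least 50 FPKM at each stage, 6 had a largest difference below 0.1, 14 between 0.1 and 0.2, and 19 between 0.2 and 0.3. Another 21 lay between 0.3 and 0.4 and 17 between 0.4 and 0.5. The widest level unigenes after unigene9165 were unigene12254, with 70.1 FPKM at YG, 76.5 at W and 84.7 at G, unigene39547, with 62.3, 55.2 and 66.3, and unigene33242, with 77.2, 64.3 and 70.7. Their largest differences were 0.27, 0.26 and 0.26.

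Just outside the limit, unigene28740 had 128.4 FPKM at YG, 118.9 at W and 146.6 at G, a largest difference of 0.301. The next were unigene57224, with 60.8, 50.1 and 62.1, and unigene25776, with 57.5, 67.6 and 71.6 FPKM at successive stages. Unigene7749 had 54.8, 68.6 and 59.2 FPKM and unigene40128 had 74.96, 62.1 and 59.7. These 5 reached at most 0.32, so they differed little from the unigenes just inside.

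The minimum of 50 FPKM marked no gap either. The unigenes nearest to it from above had lowest values of 50.8 FPKM in unigene27535, 51.5 in unigene19236 and 52.6 in unigene12723, in each case in G. Level unigenes just below it were unigene11661, with 48.9 FPKM at G, unigene4338, with 47.7 at W, and unigene31400, with 46.8 at G. Each of these last 3 was above 50 FPKM at another stage.

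The small steps of the 39 unigenes took every direction. Of the 39, 17 had a higher and 22 a lower value in W than in YG, with a median difference of -0.01 on the log2 scale. In G, 20 lay above and 19 below their W value, with a median of 0.00, and 21 lay above and 18 below their YG value, with a median of 0.01. The rule kept every difference within 0.3, so these medians were bound to lie near 0. Over all 272 unigenes above 50 FPKM the medians were 0.01, -0.04 and 0.02, and over the 78868 unigenes with at least 1 FPKM in at least 1 stage they were each 0.00.

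By shape, 13 of the 39 were lowest in W, 10 were highest in W, 9 were lower at each later stage and 7 higher at each later stage. These shares were 33.3%, 25.6%, 23.1% and 17.9%. Among the other 233 unigenes above 50 FPKM at each stage, they were 15.9%, 21.5%, 32.6% and 30%. Profiles that bent at W were thus more frequent in the level unigenes by count, which was not tested, and a profile with both steps in 1 direction reaches the limit on the YG to G difference sooner. Some of the steps counted were close to 0, such as 186.66 FPKM at YG and 186.62 at W for unigene132647.

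**Figure D2:**
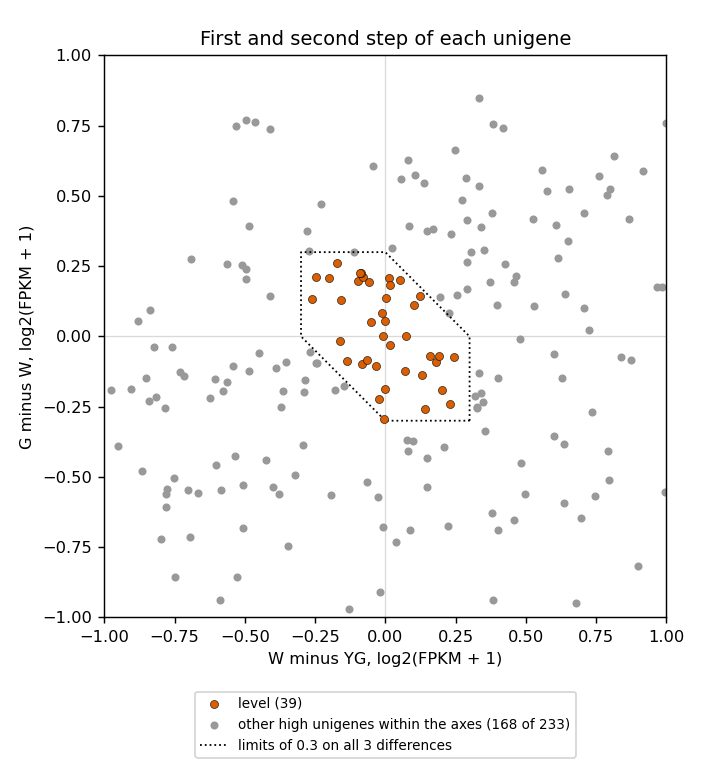
The step from YG to W (horizontal) and from W to G (vertical), each as a difference of log2(FPKM + 1), for the 39 level unigenes and for the 168 of the 233 other highly expressed unigenes that lie within 1 on both axes. The dotted outline is the limit of 0.3 on all 3 differences, which cuts off the corners where both steps run in 1 direction.

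Several of the level unigenes had nearly the same profile, a likeness noticed after the values were seen. Of the 741 pairs among the 39, 7 had all 3 differences within 0.03 of each other. The rule kept every difference below 0.3, so some close pairs were bound to occur among unrelated unigenes too. How many to count on was not computed, so the 7 pairs are given as a description. The closest pair was unigene168726, with 81.7 FPKM at YG, 76.8 at W and 90.0 at G, and unigene91927, with 78.2, 73.4 and 85.9. Unigene147035 moved like both, with 73.6, 69.6 and 80.7 FPKM, so that W was lowest and G highest in all of them. Unigene42437, with 78.0, 87.1 and 83.0, and unigene23864, with 77.2, 87.6 and 82.2, formed another pair, with W highest. Unigene45528 and unigene4672 shared the same value in W, 83.8094 FPKM, and were alike in YG, while in G they differed, at 82.1 and 95.4 FPKM. How reads shared by similar unigenes were divided is not given in the sources used here.

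With the same kind of minimum, level profiles were less frequent by count among the 272 highly expressed unigenes, at 14.3%, than among all unigenes with at least 1 FPKM at each stage, where 8189 of 29995 or 27.3% were level over all 3 pairs. The 1 added before the log narrows differences near 1 FPKM, so these shares are not fully comparable. With 0.1 added instead, the share among unigenes with a mean from 1 to under 2 FPKM fell from 19.5% to 8.89%. The classes of mean FPKM above 50 kept their shares, and the 27.3% was not computed again in this way. The 3 stage comparisons did not contribute equally. Among the 272, the difference was below 0.3 for 126 between W and G (46.3%), for 89 between YG and W (32.7%) and for 79 between YG and G (29%). Over the 29995 unigenes these shares were 53.3%, 54.2% and 41.2%, and over the 78868 with at least 1 FPKM in at least 1 stage they were 38.4%, 40.9% and 30.6%. A further 31 of the 272 missed the limit in 1 comparison alone, 12 of them between YG and G, 11 between YG and W and 8 between W and G, while 87 exceeded it in every comparison.

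The other 233 unigenes differed far more between stages. The median largest difference was 0.20 on the log2 scale in the level unigenes, against 0.91 in the others, a gap that the rule itself set. The level unigenes were also less highly expressed, with a median of the mean FPKM of 76.5, against 108 in the others. Of the 39 level unigenes, 5 reached a mean of 100 FPKM, against 140 of the other 233. The level unigenes thus made up 26.8% of the 127 unigenes with a mean under 100 FPKM, but 3.45% of the 145 at or above it. As every stage had to reach 50 FPKM, a mean close to 50 left little room for a difference, and the rule thereby favored level profiles at the low end. Unigene10754, the highest of them, ranked 54 among the 272, and each of the 53 unigenes above it differed by at least 0.68 between 2 of the stages.

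**Figure D3:**
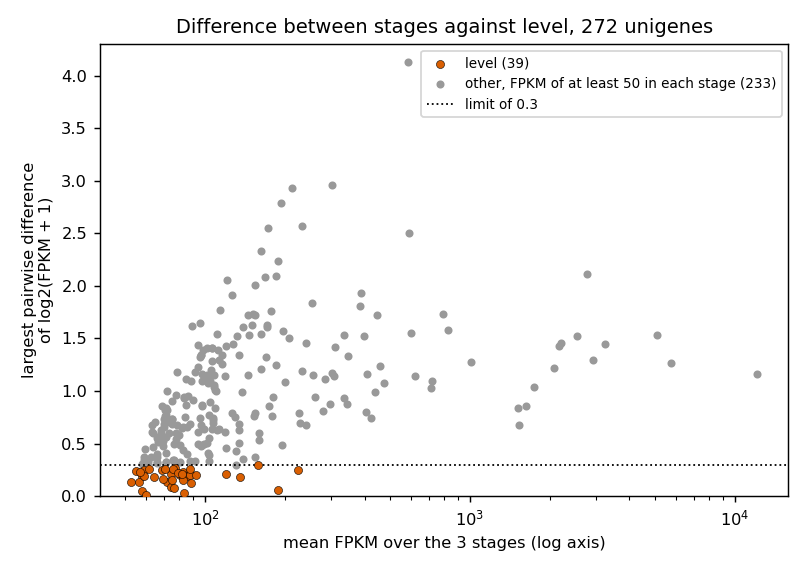
Largest pairwise difference of log2(FPKM + 1) between stages against the mean FPKM (log axis) for the 272 unigenes with at least 50 FPKM at each stage, the 39 level ones in orange and the other 233 in grey. Above a mean of 224 FPKM, the value of the highest level unigene, no unigene lies below the dotted limit of 0.3.

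Across the whole table, without that minimum, the share of level unigenes declined class by class from about 10 FPKM upwards. Below 10 FPKM it changed less. The share of level unigenes was 19.5% of the 24718 unigenes with a mean FPKM from 1 to under 2 and 18.4% of the 15398 from 2 to under 5. It was 17.4% of the 5470 from 5 to under 10, and 19.2% of the 2759 from 10 to under 20. It was 14.3% of the 1451 from 20 to under 50, 9.79% of the 378 from 50 to under 100 and 3.36% of the 119 from 100 to under 200. Of the 72 unigenes at 200 FPKM or more, unigene10754 alone was level, or 1.39%. The share of unigenes at least 2-fold apart between stages went the other way, at 35.3% from 10 to under 20 FPKM, 52.1% from 50 to under 100 and 79.2% at 200 or more.

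A mean can be high because of 1 stage, so the classes were also formed by the lowest stage, an alternative added after the values were seen. The share was then 25.5% from 10 to under 20 FPKM, 17.3% from 50 to under 100, 9.52% from 100 to under 200 and 3.03% at 200 or more. A pseudocount of 0.1 lowered the shares of weakly expressed unigenes, to 8.89% between 1 and 2 FPKM and 16.9% between 10 and 20, and left those above 50 FPKM as they were. From 10 to 200 FPKM the share declined class by class under all 8 alternatives tried for these classes, and it was lowest at 200 FPKM or more except under quantile normalization, where it was 2.52% from 100 to under 200 and 2.7% above. Below 10 FPKM the order of the classes depended on the pseudocount.

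**Figure D4:**
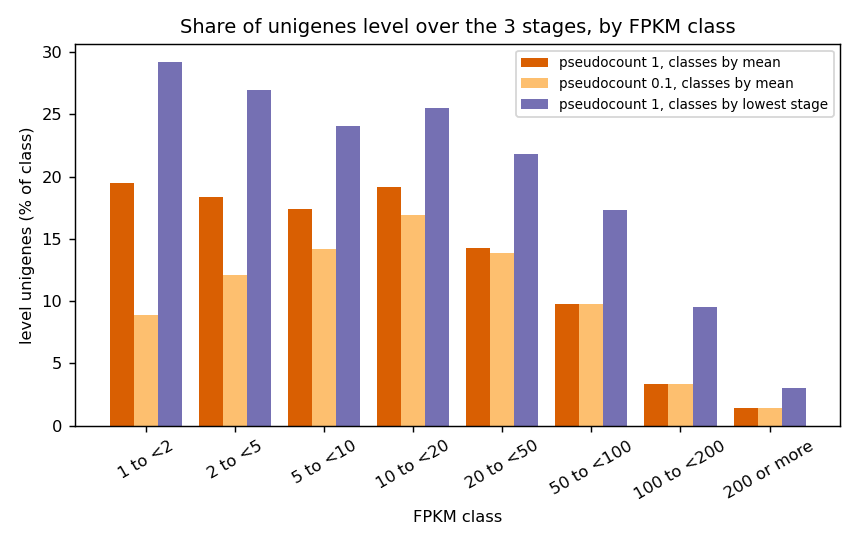
Share of unigenes in each FPKM class whose 3 pairwise differences of log2(FPKM + 1) were all below 0.3, in percent, with classes by mean FPKM, with a pseudocount of 0.1, and with classes by the lowest stage. From the class of 10 to under 20 FPKM upwards the bars become shorter in all 3 settings, down to 1.39% at 200 FPKM or more with classes by the mean.

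The 39 unigenes held a small part of the FPKM sum. The sum of their FPKM values was 3302 at YG, 3293 at W and 3307 at G, which made 0.864%, 0.942% and 0.892% of the sum over all unigenes. That their sum was alike at all stages follows from the rule. The share was highest in W, where the sum over all unigenes was lowest. All 272 unigenes above 50 FPKM together held 29.5% of the sum at YG, 20.7% at W and 19.7% at G. Among the 10 unigenes with the highest mean FPKM, which held 16.5%, 9.10% and 8.03%, none was level. The highest of them, unigene97332, had 18394 FPKM at YG, 8214 at W and 9804 at G, and 9 of the 10 had their highest value in YG.

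The pathway lists of the study place the GSA unigene among its neighbors. With each identifier counted once, the lists used here hold 70 chlorophyll, 49 carotenoid and 36 theanine unigenes. Of all 155 different unigenes, 4 had at least 50 FPKM at every stage, a larger share by count than the 272 of all 179951. Besides GSA these were CHLP unigene26550, CRD unigene12598 and unigene13585, which is listed as glutamine or theanine synthetase (GS/TS). The CHLP unigene26550 had 67.4 FPKM at YG, 85.5 at W and 74.3 at G, with W highest as in GSA and a largest difference of 0.34, just past the limit. CRD, the cyclase that forms the fifth ring of chlorophyll, was far from level, with 77.5 FPKM at YG, 126.6 at W and 258.0 at G. In unigene13585 the values were 103.6, 100.4 and 153.3, so that YG and W were alike and G was higher by 0.61 than W.

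The most abundant unigenes of later steps were not level. HEMB joins 5-aminolevulinate molecules into porphobilinogen, and unigene5974 had 41.6 FPKM at YG, 63.3 at W and 78.3 at G. HEMC, the next enzyme, had 79.2, 68.7 and 40.9 FPKM in unigene39110, which ran the opposite way. CHLH, the large subunit of the magnesium chelatase, had 49.2, 88.4 and 208.8 FPKM in unigene24228. Less abundant unigenes of later steps could be highest in W as GSA was. Unigene8500, listed as CHLI, had 42.9, 59.6 and 45.3 FPKM, a largest difference of 0.46. Unigene1808, listed as CHLM, had 25.5, 31.6 and 25.4 FPKM, a largest difference of 0.31, just past the limit. These values are single, and whether the difference between GSA and its neighbors exceeds the spread between plants was not tested.

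**Figure D5:**
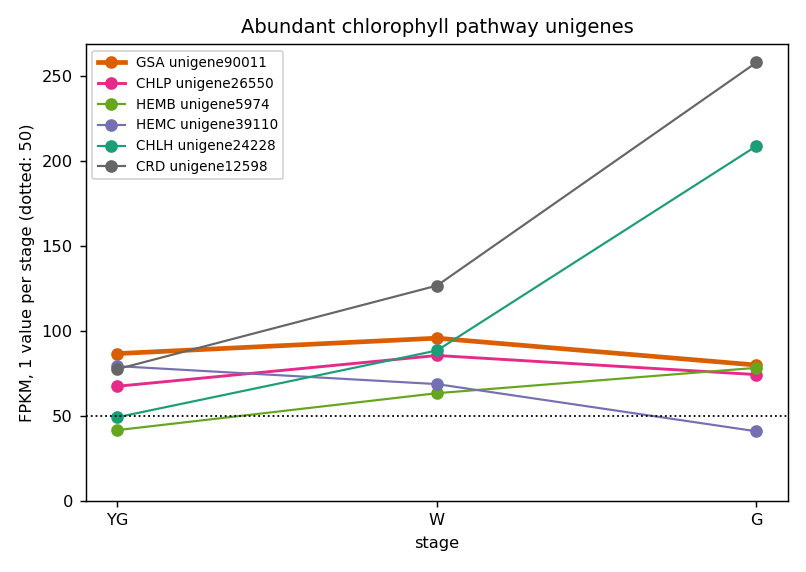
FPKM at the YG, W and G stages, 1 value a stage, of the level GSA unigene90011 and of 5 other abundant unigenes of the chlorophyll pathway. GSA stays between 79.9 and 95.7 FPKM, while CRD unigene12598 reaches 258.0 and CHLH unigene24228 208.8 at G.

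The other level unigenes of these pathways were less expressed. Among the listed unigenes with at least 1 FPKM in at least 1 stage, 12 of 62 chlorophyll unigenes were level over all 3 pairs (19.4%), 8 of 37 carotenoid unigenes (21.6%) and 2 of 28 theanine unigenes (7.14%), beside 13.7% of all 78868. The 13.7% includes unigenes that reached 1 FPKM in 1 stage alone. Over the 29995 unigenes with at least 1 FPKM at each stage the share was 27.3%. The listed unigenes were not counted in that way, so no excess of level unigenes in the lists is read from these shares. The other GSA unigene, unigene37850, was among the level chlorophyll unigenes, with 1.70 FPKM at YG, 1.87 at W and 1.85 at G. Others were the protochlorophyllide oxidoreductase unigene8789, with 21.9, 26.1 and 21.7, and the lycopene ε-cyclase unigene89247, with 9.57, 9.89 and 11.1 FPKM at successive stages. Of the 22 level unigenes in the lists that reached 1 FPKM in a stage, 1 had been tabulated by the study as differentially expressed. This was ispD unigene6307, with 2.75, 3.28 and 3.46 FPKM. Tabulated and level as well, but below 1 FPKM at every stage, were unigene2533 (PORA), unigene2557 (GGPS) and unigene40875 (GS/TS). Differences that low are narrowed by the added 1.

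The rule did not use the unigene numbers. Of the 39 level unigenes, 24 had a number up to 50000 (61.5%), 10 a number between 50001 and 100000 (25.6%), 0 a number between 100001 and 130000, and 5 a number above 130000 (12.8%). For the other 233 unigenes above 50 FPKM these shares were 73.8%, 21.9%, 2.15% and 2.15%, and for all 179951 unigenes 27.8%, 27.8%, 16.7% and 27.8%. Of the highly expressed unigenes, 5 of the 10 with a number above 130000 were level, 0 of the 5 between 100001 and 130000, and 24 of the 196 up to number 50000 (12.2%). These ranges were set after the values were seen and were not tested. The 5 above 130000 were unigene132647, unigene132941, unigene147035, unigene166491 and unigene168726. Unigene166491 was the most even of them after unigene132647, with 73.3 FPKM at YG, 72.6 at W and 77.0 at G. The remaining 5 of the 10 differed by between 0.43 and 1.24. A pair of level unigenes had nearly consecutive numbers, unigene33242, with the values given above, and unigene33244, with 67.9 FPKM at YG, 64.1 at W and 59.9 at G.

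Which unigenes met both limits depended on the scaling of the stages more than their number did. Upper-quartile scaling gave 38 unigenes, 33 of them among the 39, quantile normalization gave 38 with 30 shared, and median-of-ratios scaling gave 40 with 37 shared. All 3 kept 30 of the 39, including unigene132647, unigene54291, unigene45528, unigene2075 and unigene93815. The 9 that were lost under at least 1 of them were unigene10754, unigene9165, unigene87448, unigene63697, unigene90011, unigene12723, unigene91360, unigene19236 and unigene27535. Under upper-quartile and median-of-ratios scaling, unigene27535 stayed level, with largest differences of 0.21 and 0.18. It was lost there by the minimum of 50 FPKM. Scaling to equal FPKM sums gave 38 unigenes with 29 shared, and the largest difference of unigene27893 became 0.37 and that of unigene63697 0.33. Quantile normalization moved the median difference of the 39 between G and W to -0.13, and the largest difference of unigene10754 to 0.63.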

How the data were processed

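RNA-seq of 9 leaf libraries, 3 each for the YG, W and G stages, was used. The authors filtered the reads, assembled unigenes with Trinity and deposited FPKM values computed with Cufflinks (version 2.1.1 in the submitters' processing notes, another release in the paper's methods), with 1 value per unigene and stage. How the libraries of a stage were combined, and the aligner, are not given in the sources used here. The depth behind single values is unknown, so no interval is given.

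The stages were joined on the unigene identifier, and differences were taken as the later minus the earlier stage of log2(FPKM + 1), which understates changes of weakly expressed unigenes. The planned test on libraries could not be run on 1 value per stage, so no p-value is given. The members, lists and comparisons were chosen with earlier results of these data known. Gene names are those of the study's pathway and primer lists, and 0 identifiers matched the reference gene table.

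Named unigenes were the 10 level unigenes with the highest mean, the 5 most and 5 least even, those nearest the limits, the 10 highest of the table and listed pathway unigenes above 50 FPKM at every stage. Others were chosen after their values were seen. Alternatives were a pseudocount of 0.1, upper-quartile and median-of-ratios scaling, quantile normalization, other minimums and limits, and, added after the values were seen, other forms of the FPKM classes and scaling to equal FPKM sums. The computation of the rule was checked on simulated data for 169348 unigenes. It found 230 of 230 simulated level unigenes of at least 60 FPKM and 0 of 200 that were doubled at 1 stage. These cases were easy, since 60 FPKM is above the minimum of 50 and a doubling is far past the limit of 0.3. The check cannot tell how reliable the level calls in the leaves are, because the spread between libraries is unknown. The analysis ran in Python 3.11.15 (numpy 2.4.6, pandas 2.3.3, matplotlib 3.10.9, scipy 1.17.1).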

Additional observations from a re-analysis of the deposited data

How the results depend on the processing

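The number of level, highly expressed unigenes lay between 38 and 42 under a pseudocount of 0.1, the 3 scalings, a minimum on the mean FPKM and the tabulated pathway unigenes kept. It followed the limits closely. A minimum of 20 FPKM gave 225 unigenes, 20% of those above it, and a minimum of 100 FPKM gave 5, or 6.67%. A limit of 0.2 on the differences gave 20, or 7.35%, and a limit of 0.5 gave 77, or 28.3%. Without a filter on low values, 35.3% of the unigenes above 0 at every stage were level on this scale, where a pseudocount of 1 compresses low values. The share of the FPKM sum at the YG, W and G stages was 2.32%, 2.53% and 2.39% with a minimum of 20 FPKM, 0.226%, 0.237% and 0.212% with 100 FPKM, 0.419%, 0.459% and 0.431% with a limit of 0.2, and 1.74%, 1.92% and 1.77% with a limit of 0.5. Under quantile normalization the median difference of the 39 unigenes was -0.1344 for G minus W and -0.1006 for G minus YG, and the cause was not tested. Scaling to equal FPKM sums, added after the values were seen, gave 38 unigenes and a median W minus YG of 0.1231, since the FPKM sum was lowest at W. No paired analysis was possible because the values of a stage carry no replicate numbers, and for the same reason no library could be left out.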
